A study of Homo sapiens with 6 samples.

Results

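The genes described here are 45 genes of the cell division cycle, taken by symbol from a deposited table of 19976 genes. They were read as 2 modules. The module of G1/S and replication genes held 25 members, and the G2/M module held 20. The cells were THP-1, an established human monocytic leukaemia line, made macrophage-like with the phorbol ester PMA at 50 ng/ml for 48 h. In the control group the cells then received 200 nM of a negative control siRNA for 48 h. In the knockdown group (circ siRNA) the siRNA, at the same 200 nM and for 48 h, targeted the circular RNA hsa_circ_0004287. Both groups were also stimulated with the bacterial lipopolysaccharide LPS at 200 ng/ml for 3 h, so no library shows PMA-treated cells without LPS or THP-1 cells before PMA. Each group had 3 libraries from this 1 cell line, and the labels do not tell separate cultures from repeats of 1 culture. The p-values therefore measure spread among these libraries only, and that spread may be technical. The study asked which genes differ after knockdown of the circular RNA.

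A cell that commits to divide passes from G1 into DNA synthesis when D-type cyclins with CDK4 or CDK6, and then cyclin E with CDK2, phosphorylate the retinoblastoma protein and free E2F factors. E2F factors switch on genes for origin licensing, replication and nucleotide supply. Later in the cycle, genes for entry into and passage through mitosis are switched on through promoter elements read by the MuvB complex with B-MYB and FOXM1; in resting cells MuvB joins p130 and E2F4 in the repressive DREAM complex. PMA is known to make THP-1 cells leave the cycle as they adhere and differentiate. No measure of DNA content or division was analysed here.

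The promoters of the modules carry different short words, shown here because they are a property of the members that the expression values did not use. RefSeq promoter windows of 300 bases (250 before to 50 after the annotated start, build GRCh38.p14) were matched by symbol for 36 of the 45 members, 20 of the first module and 16 of the G2/M module. The members with no entry were MCM4, MCM5, CCNE2, CCND1, CCND2, AURKA, TPX2, UBE2C and BIRC5. Both strands were searched for E2F words (TTTCCCGC, TTTCGCGC, TTTGCCGC or TTTGGCGC), for the cell cycle genes homology region (CHR, the MuvB-bound element) as TTTGAA or as TTTAAA, and for CCAAT, the word of the factor NF-Y. An E2F word and a CCAAT word can overlap, as they do in MCM7. At least 1 E2F word was found for 11 of 20 G1/S and replication genes (55%) and 2 of 16 G2/M genes (12.5%), against 3.99% of all 27305 genes with a window. A gene can have more than 1 window, and per window the E2F shares were 39.3%, 16.7% and 3.31%. TTTGAA was found for 11 of the 16 G2/M genes (68.8%) and for RRM1 alone among the 20 genes of the first module (5%), against 18.2% of all genes. TTTAAA was found for 8 of 16 and 3 of 20, against 14.5%. CCAAT was found for all 16 G2/M genes with a window and for 14 of 20 of the first module (70%), against 39.7% of all genes.

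Promoters of 6 members are printed 5′ to 3′ in the direction of the gene, with every searched word in capitals. The E2F words stand in CDT1 (chr16:88803539-88803838, plus strand), MCM7 (chr7:100101348-100101647, minus strand, 1 of its 3 windows) and E2F1 (chr20:33686336-33686635, minus strand). For MCM7 the window was chosen for holding the most kinds of searched word. CHR and CCAAT words stand in CDC20 (chr1:43358731-43359030, plus strand), CCNB2 (chr15:59104896-59105195, plus strand) and CCNB1 (chr5:69166900-69167199, plus strand). The B-type cyclin genes are shown together because their values are set side by side further on. CCNB2 holds TTTGAA with its first base at -29 from the start and TTTAAA at -193, and CCNB1 holds TTTAAA at -30. A word is a match of letters and not a measured binding site.
CDT1: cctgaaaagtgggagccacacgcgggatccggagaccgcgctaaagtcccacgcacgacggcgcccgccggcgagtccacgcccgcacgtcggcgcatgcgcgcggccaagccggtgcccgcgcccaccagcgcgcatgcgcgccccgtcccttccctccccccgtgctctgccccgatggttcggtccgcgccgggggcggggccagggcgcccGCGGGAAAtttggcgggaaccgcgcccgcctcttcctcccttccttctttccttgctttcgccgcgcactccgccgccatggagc
MCM7: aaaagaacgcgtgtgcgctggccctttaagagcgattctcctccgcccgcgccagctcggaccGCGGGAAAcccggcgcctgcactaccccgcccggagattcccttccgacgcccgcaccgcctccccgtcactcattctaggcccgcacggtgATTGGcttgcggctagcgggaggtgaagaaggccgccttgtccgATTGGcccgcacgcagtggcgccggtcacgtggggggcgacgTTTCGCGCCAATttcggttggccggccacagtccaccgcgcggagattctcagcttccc
E2F1: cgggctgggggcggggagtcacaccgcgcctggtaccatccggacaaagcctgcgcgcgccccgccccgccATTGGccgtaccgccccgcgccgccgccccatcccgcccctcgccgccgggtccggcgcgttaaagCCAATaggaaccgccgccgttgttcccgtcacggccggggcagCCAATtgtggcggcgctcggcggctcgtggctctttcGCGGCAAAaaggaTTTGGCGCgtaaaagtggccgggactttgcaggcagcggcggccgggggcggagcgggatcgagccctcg
CDC20: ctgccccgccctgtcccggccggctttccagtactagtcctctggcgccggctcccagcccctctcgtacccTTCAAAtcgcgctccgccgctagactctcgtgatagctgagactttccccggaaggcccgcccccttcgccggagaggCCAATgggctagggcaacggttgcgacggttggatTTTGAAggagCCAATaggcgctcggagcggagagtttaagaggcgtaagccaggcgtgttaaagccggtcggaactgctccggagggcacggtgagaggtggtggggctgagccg
CCNB2: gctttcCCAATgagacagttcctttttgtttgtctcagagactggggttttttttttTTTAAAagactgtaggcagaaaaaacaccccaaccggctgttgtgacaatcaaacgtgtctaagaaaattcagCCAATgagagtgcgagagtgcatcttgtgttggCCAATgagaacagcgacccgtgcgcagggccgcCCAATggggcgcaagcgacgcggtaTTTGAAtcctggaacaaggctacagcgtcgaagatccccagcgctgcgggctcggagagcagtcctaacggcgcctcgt
CCNB1: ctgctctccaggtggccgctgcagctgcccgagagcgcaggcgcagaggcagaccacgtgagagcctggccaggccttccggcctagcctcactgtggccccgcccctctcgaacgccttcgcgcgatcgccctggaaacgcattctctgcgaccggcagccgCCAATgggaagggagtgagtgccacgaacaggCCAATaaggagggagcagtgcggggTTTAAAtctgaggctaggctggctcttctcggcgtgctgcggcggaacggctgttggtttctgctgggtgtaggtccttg

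Library totals ran from 14793902 to 16736972 counts, and 12469 genes passed the filter on low counts. The circular RNA was not analysed here, so the labels could not be checked against their target. Control library 1 and circ library 3 stood apart from the other 4 libraries on the first principal component, which held 53.4% of the variance, at -23.2 and -38.4 against -1.51 to 30.4. Of 12 macrophage and monocyte markers, 10 were tested. SPI1, CSF1R, ITGAX and CD14 were abundant, whereas CD68 had 1 to 5 counts and MRC1 2 to 6 counts in each library. The T and NK cell list (8 genes) summed to 1.45 to 3.94 CPM in the control group and to 2.77 to 3.11 CPM in the circ group, with CD3G and CD2 at 0. The B cell list (7 genes) summed to 3.20 to 3.44 and 1.97 to 3.01 CPM, with VPREB3 at 0. The epithelial list (6 genes) summed to 0.063 to 0.121 and 0.179 to 0.270 CPM, with EPCAM, KRT5 and KRT20 at 0, and the fibroblast list (6 genes) to 24.1 to 29.96 and 24.7 to 27.9 CPM, with no member at 0 in every library. CPM are counts scaled to a common library size of 1e6, which for marker sums is the deposited total and for single genes the total corrected by TMM.

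Both modules were expressed in every library, at levels that differed widely between genes. In the authors' FPKM values, which divide by gene length and so allow genes to be compared, tested G1/S and replication genes had a median over members of 4.11 FPKM (range 0.442 to 119), and G2/M genes 1.60 FPKM (range 0.374 to 13.9). The median of all tested genes was 3.69 FPKM. At the top stood CCND1, the gene of cyclin D1, with 119 FPKM over the 6 libraries, a level above that of 97.2% of tested genes. It was followed by CCND3 with 27.8 FPKM, SLBP with 23.2 FPKM and MCM7 with 18.3 FPKM. CDC20 led the G2/M module with 13.9 FPKM, then CCNB1 with 9.28 and AURKA with 3.998 FPKM. Near the bottom were MCM10 with 0.442 FPKM and KIF20A with 0.374 FPKM, and the proliferation antigen gene MKI67 had 1.44 FPKM. The inhibitor gene CDKN1A, which encodes p21 and is no member of either module, had 701 FPKM, rank 59 of the 12469 tested genes.

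**Figure D1:**
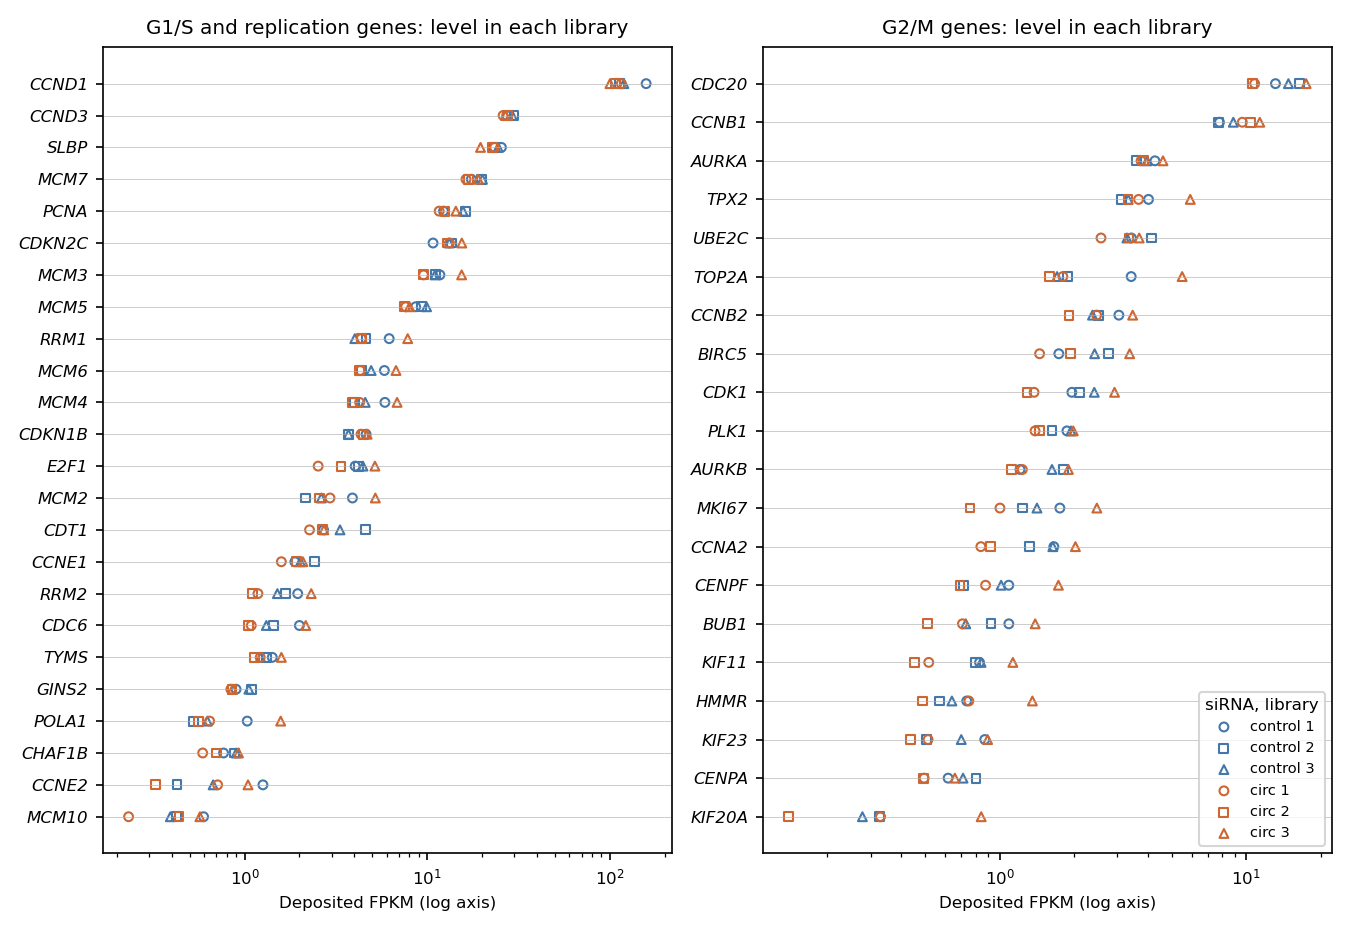
Deposited FPKM (log axis) of each tested member in each of the 6 libraries, blue for control siRNA and orange for circ siRNA, with 1 symbol per library number. CCND1 lies near 119 FPKM, above every other member, and circ library 3 (orange triangles) is the rightmost point for most G2/M genes.

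No member passed the threshold in the comparison of circ siRNA with control siRNA. In edgeR's quasi-likelihood test, 0 of the 24 tested G1/S and replication genes and 0 of the 20 G2/M genes had a Benjamini-Hochberg adjusted p under 0.05, against 1 of 12469 tested genes (0.00802%). At an unadjusted p under 0.05 there were 0 higher and 1 lower in the first module and 1 higher and 0 lower in the second, against 3.77% of all tested genes higher and 2.68% lower (6.45% in either direction). DESeq2 called 0 members, against 0.481% of all tested genes higher and 0.184% lower. With limma-voom 0 members were called, and 0 of all 12469 tested genes. With offsets for each library's length and GC trend edgeR also called 0 members, against 0.0962% of all tested genes. The only member that was not tested was CCND2, the gene of cyclin D2, which had 2, 0 and 4 counts in control libraries 1 to 3 and 3, 3 and 5 counts in circ libraries 1 to 3. In control library 2 a count of 0 allows up to 0.188 CPM.

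Log2 fold changes (circ siRNA minus control siRNA) were negative for 18 of 24 tested G1/S and replication genes (75%) and for 13 of 20 G2/M genes (65%). Of all tested genes 51.2% were negative. Their median was -0.18 in the first module, -0.11 in the second and -0.01 over all tested genes. With the length and GC offsets 17 of 24 and 13 of 20 were negative, against 52.9% of all tested genes. The medians moved with single libraries. For G1/S and replication genes the median ran from -0.25 without circ library 3 to -0.04 without circ library 1, and was -0.10 without control library 1, -0.12 without control library 2 and -0.10 without circ library 2. For G2/M genes it was -0.42 without circ library 3, 0.0049 without circ library 2, -0.012 without circ library 1, -0.034 without control library 1 and -0.062 without control library 2. Groups did not overlap for 3 members of the first module, all with circ lower (MCM5, SLBP and CCND1), against 5.87% of tested genes with circ lower. In the G2/M module they did not overlap for 1 member, CCNB1 with circ higher, against 6.64% of tested genes with circ higher.

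**Figure D2:**
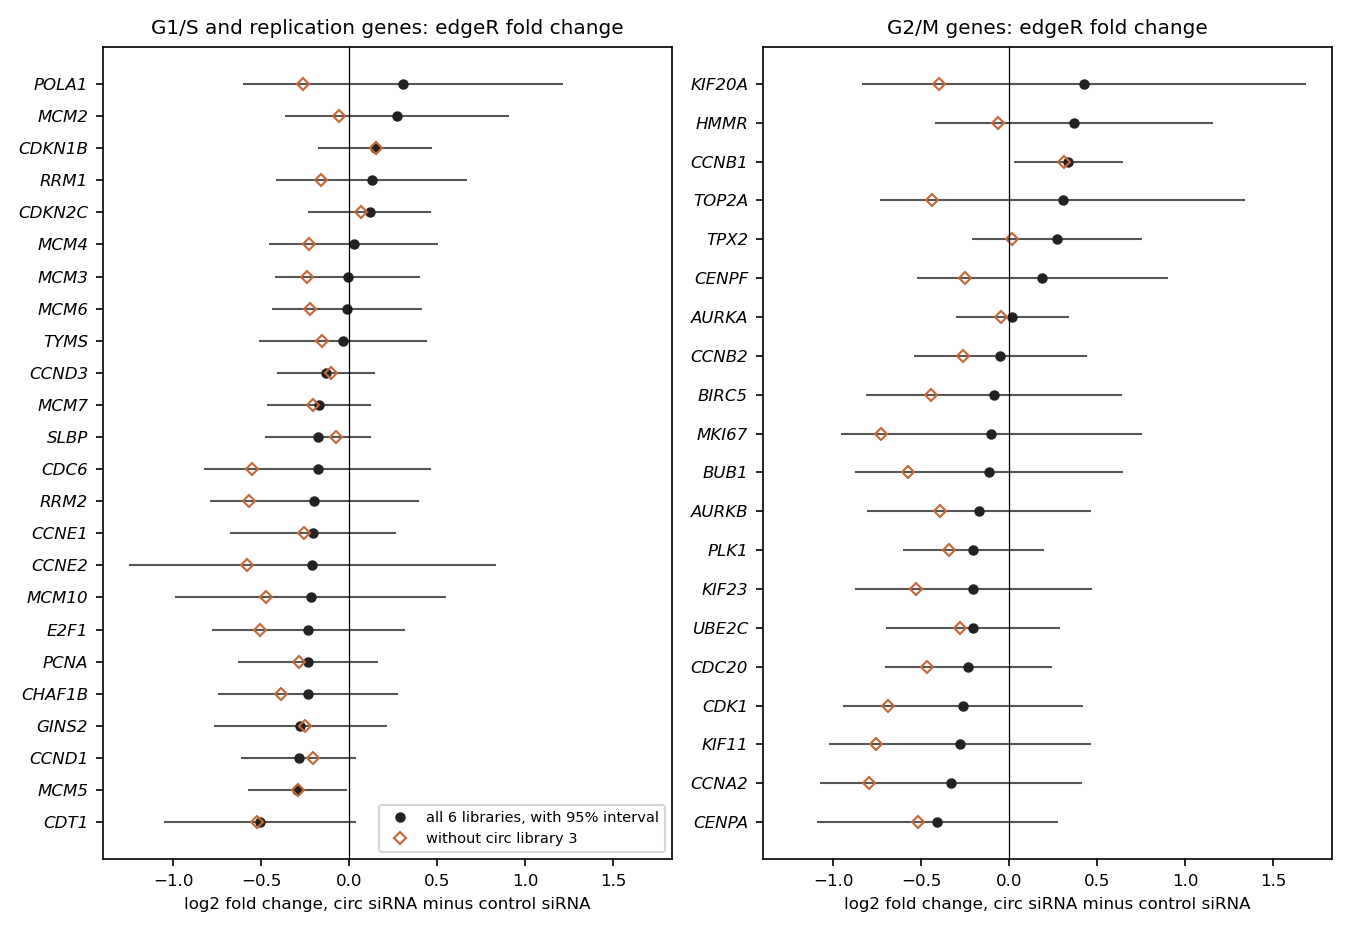
Log2 fold change of each tested member, circ siRNA minus control siRNA, from edgeR. Filled points with bars are the fit of all 6 libraries with its 95% interval, and open diamonds the fit without circ library 3. Most diamonds lie to the left of the points, by much more for CCNA2, KIF11 and MKI67 than for MCM5 or CCNB1.

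Among the D-type cyclins, which carry mitogen signals to the G1 kinases, CCND1 (chromosome 11, 69641087 to 69654474, plus strand, GRCh38) had 727, 576 and 593 CPM in control libraries 1 to 3 and 559, 535 and 459 CPM in circ libraries 1 to 3. The groups of CCND1 did not overlap, with control library 1 the highest and circ library 3 the lowest. The group values were 632 ± 82.6 and 518 ± 52.1 CPM (SD, n = 3 each), and the edgeR adjusted p of 0.817 did not pass, at a log2 fold change of -0.29 (SE 0.14, 95% interval -0.62 to 0.04). In the fit that leaves out control library 1 together with circ library 3 the value was -0.09. CCND3, which encodes cyclin D3, had 151, 182 and 175 CPM with control siRNA and 151, 164 and 148 CPM with circ siRNA. The groups of CCND3 overlapped, and its fitted log2 difference was -0.13 (95% interval -0.41 to 0.14).

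The 2 inhibitor genes of the module had positive values. CDKN1B, which encodes p27 and holds cyclin E and CDK2 in check, had 11.3, 9.99 and 9.79 CPM with control siRNA and 11.2, 11.8 and 11.4 CPM with circ siRNA. Circ library 1 lay just below control library 1, so the groups overlapped, and the log2 fold change was 0.15 (95% interval -0.18 to 0.47). CDKN2C, which encodes p18, an inhibitor of CDK4 and CDK6, had 30.9, 43.0 and 41.0 CPM with control siRNA and 40.0, 40.2 and 44.3 CPM with circ siRNA. Control library 1 was the low one, and the log2 fold change of 0.12 (95% interval -0.23 to 0.46) was -0.063 without control library 1 and circ library 3.

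Origin licensing loads the MCM2 to MCM7 helicase ring onto DNA with the help of CDC6 and CDT1, and the ring's subunits did not share 1 level or 1 pattern. Per length, MCM7 had 19.1 FPKM and MCM3 11.3 FPKM with control siRNA, MCM5 9.29, MCM6 5.04, MCM4 4.81 and MCM2 2.90 FPKM. MCM5 (chromosome 22, 35400134 to 35425431, plus strand) had 59.9, 71.0 and 74.2 CPM with control siRNA and 55.5, 56.3 and 55.2 CPM with circ siRNA. Every circ library of MCM5 was under every control library, and the circ libraries stood within 55.2 to 56.3 CPM. Its edgeR adjusted p of 0.746 was the smallest of the module, at a log2 fold change of -0.30 (SE 0.12, 95% interval -0.58 to -0.01). MCM7 had 72.9, 91.6 and 90.6 CPM with control siRNA and 71.6, 75.6 and 79.2 CPM with circ siRNA. The groups of MCM7 overlapped because control library 1 was low, and its log2 fold change was -0.17 (95% interval -0.47 to 0.13). MCM2, MCM4 and MCM6 were instead highest in circ library 3 and next highest in control library 1, and MCM3 was highest in circ library 3, with log2 fold changes for the 4 genes between -0.013 and 0.27, all negative (-0.24 to -0.056) without circ library 3. For MCM2, for example, the values were 17.5, 10.7 and 12.8 CPM with control siRNA and 13.9, 12.5 and 23.3 CPM with circ siRNA.

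CDT1, which brings the MCM ring to origins and is destroyed once S phase starts, had the most negative value of the module. It had 7.12, 13.3 and 9.46 CPM with control siRNA and 6.27, 7.55 and 7.12 CPM with circ siRNA. The spread lay in the control libraries, from which control library 2 stood high. Circ library 2 lay above control library 1, and circ library 3 was level with it. Its log2 fold change of -0.51 had an SE of 0.24 and a 95% interval of -1.05 to 0.04 (edgeR adjusted p = 0.804), and was -0.25 without control library 2. CDC6, the ATPase that recruits the ring, had a log2 fold change of -0.18, and MCM10, which helps to start the fork, -0.22, or -0.56 and -0.48 without circ library 3.

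Of the fork genes, PCNA, the sliding clamp of the DNA polymerases, had 16.4, 23.9 and 22.7 CPM with control siRNA and 16.3, 18.05 and 19.1 CPM with circ siRNA. Only control library 1 kept the groups of PCNA from standing apart, and the log2 fold change was -0.23 (95% interval -0.63 to 0.16). GINS2, a subunit of the GINS complex of the replicative helicase, had 2.75, 3.68 and 3.50 CPM with control siRNA and 2.71, 2.82 and 2.63 CPM with circ siRNA. Control library 1 of GINS2 fell among the circ libraries, and the log2 fold change was -0.28 (95% interval -0.77 to 0.21). SLBP, the factor that binds the stem loop of histone messages, had 45.7, 46.2 and 47.4 CPM with control siRNA and 44.1, 44.1 and 35.0 CPM with circ siRNA. All circ libraries of SLBP were below all control libraries, by little except in circ library 3, and the log2 fold change was -0.18 (95% interval -0.48 to 0.12), or -0.075 without circ library 3.

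The other members of the first module had log2 fold changes from -0.24 for CHAF1B, a histone chaperone subunit that works behind the fork, to 0.30 for POLA1, the catalytic subunit of primase-associated polymerase alpha. RRM1 and RRM2, the subunits of ribonucleotide reductase, had 0.13 and -0.20, and TYMS, which makes thymidylate, -0.037. CCNE1 and CCNE2, the cyclins E that activate CDK2, had -0.21 each, and E2F1, the activating transcription factor of the module, -0.23. None of these passed the threshold, and all of their groups overlapped. Without circ library 3 the values of POLA1 and RRM1 turned negative (-0.26 and -0.16), and those of RRM2, CCNE2, E2F1, CHAF1B and TYMS were -0.57, -0.58, -0.51, -0.39 and -0.16.

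In the G2/M module CCNB1 was the only gene whose groups did not overlap. CCNB1 (chromosome 5, 69167135 to 69178245, plus strand), which encodes cyclin B1, the partner of CDK1 at entry into mitosis, had 18.02, 19.7 and 22.2 CPM with control siRNA and 23.5, 26.0 and 26.2 CPM with circ siRNA. Each of the circ libraries was above each of the control libraries. The group values were 20.0 ± 2.08 and 25.2 ± 1.51 CPM (SD, n = 3 each), and the edgeR adjusted p of 0.727 did not pass, at a log2 fold change of 0.34 (SE 0.14, 95% interval 0.02 to 0.65). The value lay between 0.27 and 0.42 over the 6 fits that each drop 1 library, and was 0.39 with offsets for each library's length and GC trend. CCNB2, which encodes the related cyclin B2 and is named here after its values were seen, had 7.98, 7.30 and 6.74 CPM with control siRNA and 6.81, 5.40 and 9.04 CPM with circ siRNA. Its groups overlapped, and the log2 fold change was -0.053 (95% interval -0.54 to 0.44). The difference between the 2 genes was not tested.

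CDC20, which activates the anaphase-promoting complex, had 25.1, 34.8 and 30.7 CPM with control siRNA and 21.8, 21.9 and 33.3 CPM with circ siRNA. Circ libraries 1 and 2 lay below all control libraries and circ library 3 among them, and the log2 fold change was -0.23 (95% interval -0.71 to 0.24). It was -0.47 without circ library 3 and -0.12 without control library 2. CCNA2, the gene of cyclin A2, the S and G2 phase cyclin, had 4.42, 3.88 and 4.73 CPM with control siRNA and 2.35, 2.64 and 5.39 CPM with circ siRNA. Here too circ libraries 1 and 2 were the 2 lowest, but unlike in CDC20 circ library 3 was the highest. The log2 fold change was -0.33 (95% interval -1.08 to 0.41). It was -0.80 without circ library 3 and -0.12 without circ library 1. In PLK1, the polo-like mitotic kinase, the values were 8.49, 8.15 and 9.53 CPM with control siRNA and 6.63, 7.12 and 8.98 CPM with circ siRNA. Circ library 3 again fell among the controls, and the log2 fold change was -0.20 (95% interval -0.60 to 0.20).

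TPX2, a spindle assembly factor that activates Aurora A, had 13.8, 11.8 and 12.3 CPM with control siRNA and 13.2, 12.3 and 20.3 CPM with circ siRNA. HMMR, a microtubule-associated protein of the spindle, had 2.75, 2.37 and 2.59 CPM with control siRNA and 2.95, 1.96 and 5.07 CPM with circ siRNA. In both genes circ library 3 alone stood high, and the log2 fold changes of 0.27 and 0.37 became 0.013 and -0.065 without it. AURKA, the Aurora A kinase, was the steadiest, with 11.9, 11.0 and 11.9 CPM with control siRNA and 11.0, 11.5 and 12.8 CPM with circ siRNA. Its log2 fold change was 0.017 (95% interval -0.30 to 0.34).

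CENPA, the histone variant that marks centromeres, was counted 16 to 25 times per library and had 1.15, 1.64 and 1.43 CPM with control siRNA and 0.965, 0.982 and 1.22 CPM with circ siRNA. UBE2C, the ubiquitin-conjugating enzyme of the anaphase-promoting complex, had 4.19, 5.59 and 4.34 CPM with control siRNA and 3.32, 4.42 and 4.49 CPM with circ siRNA. The groups of both genes overlapped, with log2 fold changes of -0.41 (95% interval -1.09 to 0.27) and -0.21 (95% interval -0.70 to 0.29). The rest of the module ran from -0.28 for KIF11, the motor that separates the spindle poles, to 0.43 for KIF20A, a kinesin of the late spindle. Between them were CDK1, the mitotic kinase, with -0.26, KIF23, a kinesin of cytokinesis, with -0.21, AURKB, the Aurora B kinase, with -0.17, and BUB1, a checkpoint kinase, with -0.11. MKI67 had -0.10, BIRC5, which encodes survivin, -0.088, CENPF, a kinetochore protein, 0.19, and TOP2A, the topoisomerase that untangles chromosomes, 0.30. These values moved with circ library 3. Without it they were -0.76 for KIF11, -0.69 for CDK1, -0.53 for KIF23, -0.40 for AURKB, -0.58 for BUB1, -0.73 for MKI67 and -0.44 for BIRC5, and they turned negative for KIF20A (-0.40), CENPF (-0.25) and TOP2A (-0.44).

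Most of the variation of the G2/M module lay between libraries of the same group. The median log2 deviation of its 20 genes from the 6-library mean was 0.017, 0.042 and 0.11 in control libraries 1 to 3, but -0.28, -0.42 and 0.51 in circ libraries 1 to 3. Thus circ libraries 1 and 2 were the lowest and circ library 3 the highest, with all control libraries between. The same order held more weakly for the 24 G1/S and replication genes, at 0.048, 0.081 and 0.047 in the control libraries and -0.19, -0.12 and 0.18 in the circ libraries, while the median over all tested genes lay between -0.0063 and 0.0095 in every library. Circ library 3 was above all 5 other libraries for 15 of 20 G2/M genes and 11 of 24 genes of the first module, against 25.3% of all tested genes. Circ libraries 1 and 2 were both below all 3 control libraries for 9 of 20 and 10 of 24 genes, against 11.9% of all tested genes. In 6 of 20 and 6 of 24 genes circ libraries 1 and 2 lay below and circ library 3 above all control libraries, against 2.69% of all tested genes. These patterns were chosen after the values were seen, and their counts carry no test. The median SD of log2 CPM among the 3 circ libraries was 0.52 for G2/M genes, against 0.19 among the control libraries and 0.11 between circ libraries 1 and 2 alone. In the same order it was 0.23, 0.20 and 0.058 for G1/S and replication genes, and 0.20, 0.23 and 0.098 for all tested genes.

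Single genes show the size of this spread, chosen here after their values were seen. MKI67 had 21.5, 16.7 and 18.7 CPM with control siRNA, and 12.9, 10.0 and 30.2 CPM in circ libraries 1 to 3. TOP2A had 20.7, 12.6 and 11.2 CPM with control siRNA and 11.5, 10.4 and 33.2 CPM with circ siRNA. CDK1 had 7.35, 8.68 and 9.79 CPM with control siRNA and 5.43, 5.22 and 10.9 CPM with circ siRNA. In all 3 genes the values of circ library 3 were the highest of the 6, and for CDK1 and MKI67 those of circ libraries 1 and 2 the 2 lowest. POLA1 of the first module was likewise highest in circ library 3, at 9.94 CPM against 3.68 to 6.54 CPM in the other 5.

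**Figure D3:**
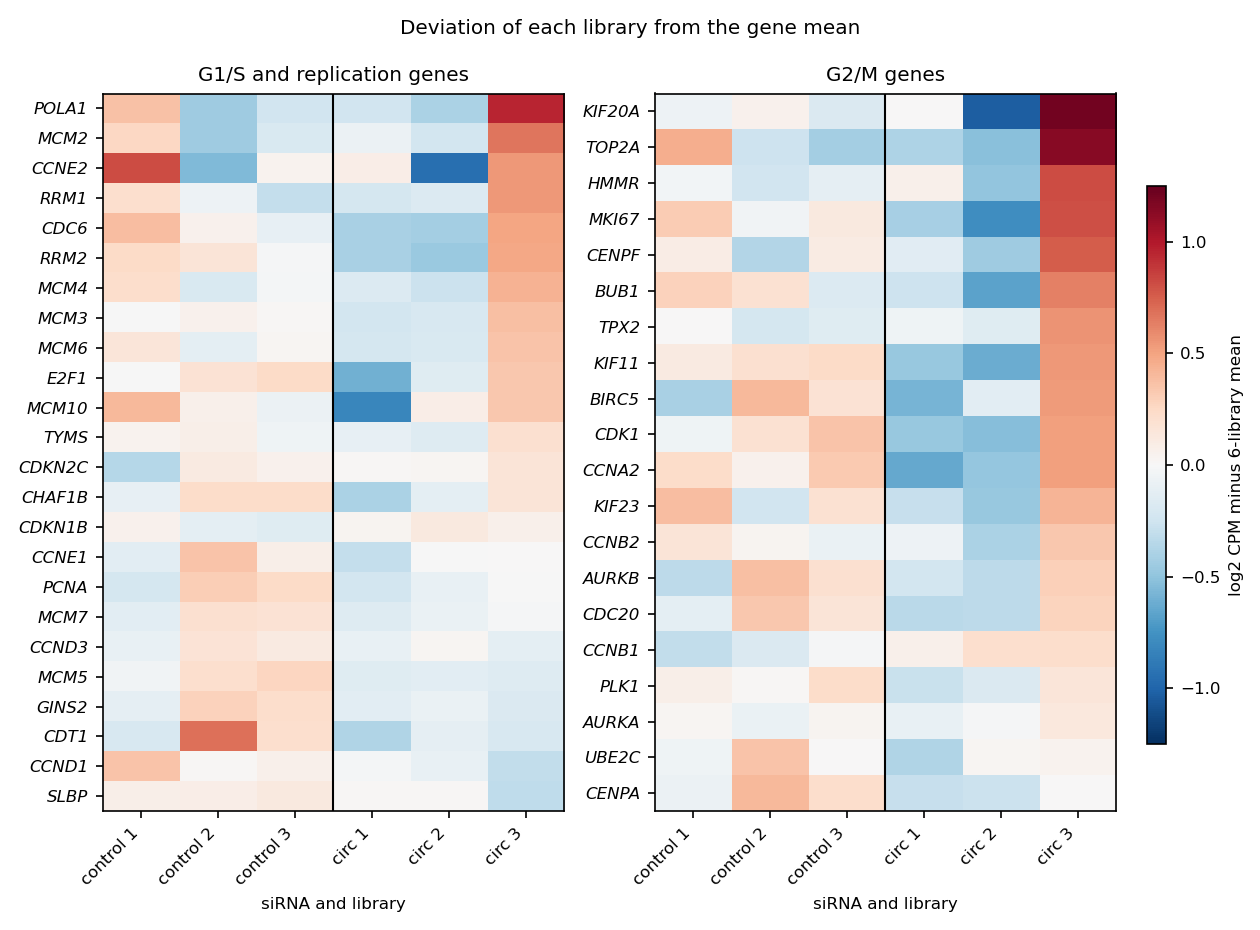
Log2 CPM of each tested member in each library minus its mean over the 6 libraries, with red above and blue below the mean, sorted by circ library 3. The column of circ library 3 is red for nearly all G2/M genes, while CCND1, SLBP, CDT1, GINS2 and MCM5 are blue there.

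Other measures moved with circ library 3. The 10 promyelocyte and progenitor markers, genes of the immature state before PMA, summed to 123.5 CPM in circ library 3 against 71.3 to 94.3 CPM in the other 5 libraries. By group the range was 71.3 to 94.3 CPM (control) and 81.4 to 123.5 CPM (circ). Of these markers 8 were tested, PROM1 was at 0 in every library and MPO had 0 to 5 counts. The median log2 deviation of the 8 tested markers was 0.40 in circ library 3 against -0.26 to 0.088 in the other 5. MYB, a transcription factor of progenitors named here after its values were seen, had 40.6 CPM in circ library 3 against 20.8 to 28.4 CPM in the other 5. The 12 macrophage and monocyte markers summed to 3173 CPM in circ library 3 against 3762 to 4406 CPM in the other 5 libraries, or by group 3762 to 4406 CPM (control) and 3173 to 4278 CPM (circ). Their part in the values of the 2 modules was not tested. In bulk libraries, fewer cycling cells and less RNA of these genes per cell cannot be told apart.

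Gene length moved with the same libraries. The mean deviation of control library 1 and circ library 3, minus that of the other 4 libraries, was larger for longer G2/M genes (Spearman's rho 0.79 across 20 genes) and for longer genes of the first module (rho 0.46 across 24 genes). A relation to length was not particular to the modules, but its size cannot be compared here. The values over all tested genes are for single libraries and not for the difference above. Over all tested genes, rho between a library's deviation and gene length was 0.47 in control library 1 and 0.39 in circ library 3. It was -0.44 and -0.40 in control libraries 2 and 3, and 0.048 and -0.29 in circ libraries 1 and 2. Genes are not independent replicates and share these libraries and their depths. After the length and GC trend of each library was taken out, the G2/M median of circ library 3 was 0.50, and those of circ libraries 1 and 2 were -0.27 and -0.41.

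Without circ library 3 the log2 fold changes were negative for 22 of 24 and 18 of 20 genes, against 54.5% of all tested genes, and 0 members and 0 of all tested genes were called by edgeR. CDKN1B and CDKN2C in the first module, and CCNB1 and TPX2 in the second, were the members with positive values there. The 6 G2/M and 3 G1/S and replication genes with an unadjusted p under 0.05 in that fit all had negative values, against 3.94% of its tested genes with higher and 3.19% with lower values at that p. Without both control library 1 and circ library 3, a comparison of 2 libraries with 2, edgeR called 6 of 24 genes lower and 0 higher in the first module and 5 of 20 lower and 0 higher in the second, against 7.43% of tested genes lower and 7.38% higher (14.8% in all). Values were negative there for 21 of 24 and 18 of 20 genes, against 50.4% of tested genes. The genes called were MCM5, CDT1, MCM7, PCNA, RRM2 and E2F1, with log2 fold changes from -0.71 for CDT1 to -0.30 for MCM7, and CDK1, KIF11, BIRC5, MKI67 and CDC20, from -0.79 for CDK1 to -0.58 for CDC20. The choice of the libraries left out came from earlier results of the same data. Circ library 3 was the highest library for 15 of 20 G2/M genes and 11 of 24 of the first module, so leaving it out lowers their values. The counts and calls of both fits are therefore no independent evidence of a lower level after circ siRNA.

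Other genes of the same pathways were read from 4 lists that share no gene with the 45. None of their members passed the edgeR threshold with all 6 libraries, against 1 of all 12469 tested genes. Of 20 tested genes of origin recognition and firing, 12 had negative values (median log2 fold change -0.066), and of 26 tested genes of the replication fork and nucleotide supply, 16 did (median -0.10). The list of G1 control, RB and E2F had 16 of 27 negative (median -0.016), and that of mitosis and spindle 28 of 47 (median -0.071), against 51.2% and a median of -0.01 over all tested genes. At an unadjusted p under 0.05 there was 1 higher and 0 lower for origin firing, 0 and 3 for the fork, 1 and 2 for G1 control, and 0 and 0 for mitosis, against 3.77% higher and 2.68% lower over all tested genes. Groups did not overlap, with circ lower, for 5 of 20 origin genes and 5 of 26 fork genes. The same held for 2 of 27 G1 control genes and 1 of 47 mitosis genes. With circ higher they did not overlap for 0, 1, 1 and 0 genes of these lists. Over all tested genes the shares were 5.87% with circ lower and 6.64% with circ higher. The mitosis and spindle list had the order of the G2/M module, at -0.24, -0.25 and 0.45 in circ libraries 1 to 3 and 0.015 to 0.11 in the control libraries.

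**Figure D4:**
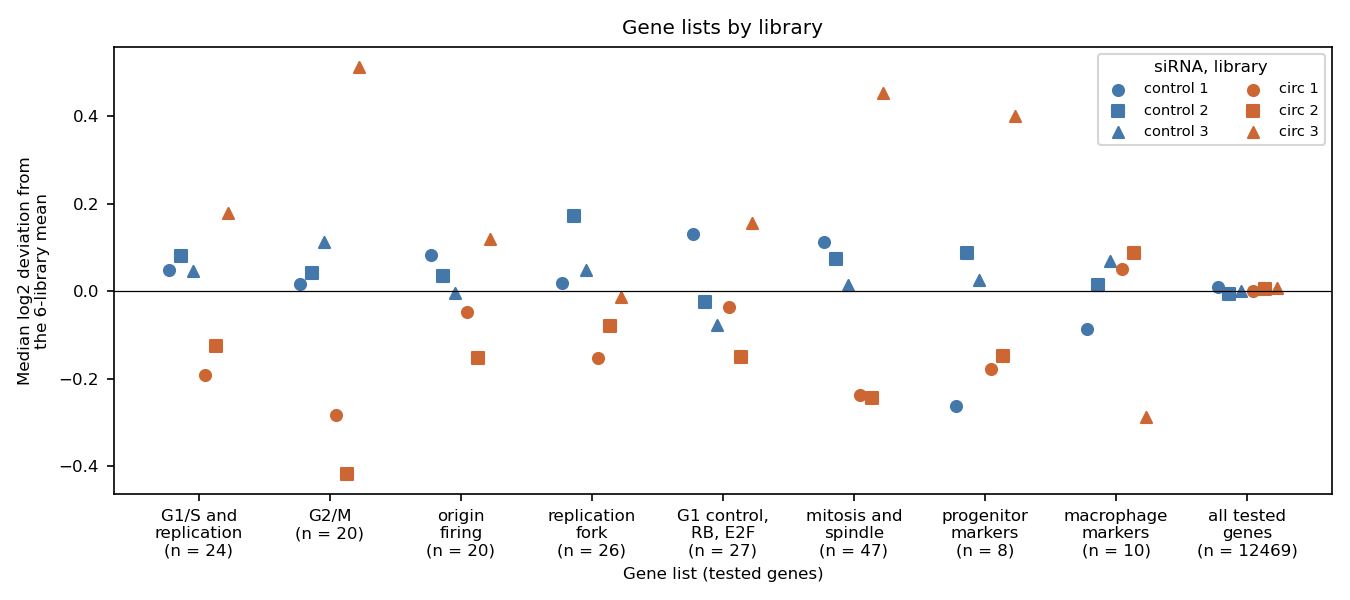
Median log2 deviation from the 6-library mean over the tested genes of each list, in each library, with n tested genes. For G2/M and for mitosis and spindle genes circ library 3 lies highest and circ libraries 1 and 2 lowest, and the median of all tested genes lies near 0 in every library.

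MYC, the growth-promoting transcription factor, had the smallest p of these lists, with 135, 148 and 147 CPM with control siRNA and 117, 113 and 111 CPM with circ siRNA. The groups of MYC did not overlap, and the edgeR adjusted p of 0.597 did not pass, at a log2 fold change of -0.34 (SE 0.11, 95% interval -0.58 to -0.09). CDK4, the kinase of the D-type cyclins, had 60.2, 62.6 and 66.2 CPM with control siRNA and 55.8, 51.2 and 49.0 CPM with circ siRNA. Its groups did not overlap either, at a log2 difference of -0.28 (95% interval -0.54 to -0.02) and an edgeR adjusted p of 0.744. TFDP2, a dimer partner of E2F factors, had 4.59, 5.39 and 5.44 CPM with control siRNA and 7.60, 6.14 and 8.34 CPM with circ siRNA, all circ libraries being above all control libraries, at a log2 difference of 0.52 (95% interval 0.09 to 0.94) and an edgeR adjusted p of 0.659.

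CDKN1A had 2139, 2223 and 2319 CPM with control siRNA and 2207, 2188 and 1782 CPM with circ siRNA. The groups overlapped, and its log2 fold change was -0.11 (95% interval -0.42 to 0.20). CDK6, the second kinase of the D-type cyclins, had a log2 fold change of -0.0071 (95% interval -0.42 to 0.41), and RB1, which encodes the retinoblastoma protein, 0.11 (95% interval -0.32 to 0.53). The inhibitor genes CDKN2A and CDKN2B had 0 counts in all 6 libraries, which allows up to 0.203 CPM in the shallowest.

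Of the fork genes, RPA2, a subunit of the protein that covers single-stranded DNA, had 28.6, 32.4 and 32.3 CPM with control siRNA and 22.3, 27.4 and 19.0 CPM with circ siRNA. POLE2, a subunit of polymerase epsilon, had 2.81, 3.09 and 2.01 CPM with control siRNA and 1.51, 1.60 and 1.67 CPM with circ siRNA. DSCC1, which helps to load the clamp for sister chromatid cohesion, had 2.41, 2.17 and 2.33 CPM with control siRNA and 0.965, 1.04 and 1.92 CPM with circ siRNA. In each of these 3 genes, picked as those of the fork list with the smallest p, all circ libraries were below all control libraries. Their log2 fold changes were -0.44, -0.73 and -0.82 (edgeR adjusted p = 0.665, 0.659 and 0.722). Of all tested genes 5.87% had groups that did not overlap with circ lower.

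In the origin list, GINS4, another GINS subunit, had an edgeR log2 difference of 0.81 (95% interval 0.04 to 1.57, adjusted p = 0.746). TICRR, which helps to fire origins, had -0.74 (95% interval -1.54 to 0.05), and DBF4, the activator of the CDC7 kinase, -0.29 (95% interval -0.62 to 0.04). In the mitosis list, SPC24 of the kinetochore had -0.78 (95% interval -1.58 to 0.02), the kinesin gene KIF15 -0.57 (95% interval -1.29 to 0.16) and SGO1, a protector of cohesion, 0.67 (95% interval -0.21 to 1.55). The groups of DBF4 did not overlap, with circ lower, and those of the other 5 genes did.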

How the data were processed

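The values came from 1 deposited table of poly-A RNA sequencing of 6 libraries, 3 per group, in paired ends per the labels' protocols. Per the submitters' processing notes, CASAVA, cutadapt and HISAT2 and the build GRCh38 were used. Not given in the sources used here were the versions, the counter, its strand setting and the annotation release. Per the file headers, the authors deposited a read count and an FPKM per gene and library. The counts are whole numbers and not normalised, and the deposited FPKM equal the count divided by the listed gene length in kilobases and by the column total in units of 1e6, which was recomputed.

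Counts were tested with edgeR 4.0.16 in R 4.3.3 (two-sided quasi-likelihood F test, TMM scaling, filterByExpr with minimum count 10, group as the only term), fitted on the whole table with Benjamini-Hochberg adjustment over 12469 genes and a threshold of 0.05. Log2 CPM used a prior count of 2. FPKM served only to compare levels between genes. Alternatives were DESeq2 1.42.0, limma-voom (limma 3.58.1), other scalings, filters and thresholds, a replicate block, left-out libraries, and offsets for each library's length and GC trend (splines with 4 degrees of freedom; 91 listed genes had no GC value in GENCODE 29).

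The members and gene lists were chosen with earlier results of these data known. Per-library values were given for the 8 members of each module with the smallest p, the 3 with the highest FPKM, the D-type cyclins and 2 inhibitor genes, and, of the other lists, for up to 3 genes by p and for CDKN1A, CDK4, CDK6, RB1 and MYC by name; some of the latter are given by fold change only. Exons of 17 members overlap another gene in GENCODE 29, and 11 members have a pseudogene named after them. With strand and counter unknown, their counts are uncertain by the reads shared. Overlaps on the opposite strand include MCM7 with AP4M1 (392 bases), CCND1 with LTO1 (497 bases), TYMS with ENOSF1 (967 bases) and CCNE2 with INTS8 (1629 bases). RRM2 overlaps AC007240.1 on the same strand (1077 bases), which no strand setting would resolve. Intervals from counts of 0 (3 counts) cover counting error only. With 3 libraries against 3, no exact permutation test can go below p = 0.1, so none was used. No pair of libraries of a group agreed within sampling noise (chi-square per gene at least 5.73).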

Additional observations from a re-analysis of the deposited data

How the results depend on the processing

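Over all settings but the fit without both control library 1 and circ library 3, the number of members called was 0 in each module and direction; in that fit 6 G1/S and replication genes and 5 G2/M genes were called lower. The module medians moved by less than the spread between replicates in every setting (SD 0.14 and 0.36 on the log2 scale). Both spreads include circ library 3, so they are wide limits and do not show that the medians were stable. Within these limits the G1/S and replication median ran from -0.25 without circ library 3 to -0.04 without circ library 1, against -0.18 with all 6 libraries. The G2/M median ran from -0.42 without circ library 3 to 0.0049 without circ library 2, against -0.11 with all 6 libraries. Over all tested genes, 0 were called higher and 1 lower; the counts were 60 and 23 with DESeq2, 6 and 6 with length and GC offsets, 919 and 926 without both libraries, and 3 and 4 at an adjusted p under 0.1. Genes called lower numbered 0 with library totals alone, limma-voom, an adjusted p under 0.01, the replicate block and the block with the offsets, 2 without the filter, and 0 when any one library was left out. The replicate numbers gave no clear pairing (correlations of same-numbered libraries' deviations -0.17, 0.46 and -0.37, and some libraries correlated best with another number); with the replicate block the module medians were -0.19 and -0.18, and with the block and offsets -0.14 and -0.11. Without both libraries the log2 fold changes of 8 of the 44 tested members changed sign, HMMR to -0.0063, AURKA to -0.025, CDKN2C to -0.063, TOP2A to -0.11, KIF20A to -0.40, CENPF to -0.17, RRM1 to -0.016 and MCM4 to -0.10, and with library totals alone that of CDK6 did, to 0.018. As each library was left out, the values ran from -0.065 to 0.63 for HMMR, -0.045 to 0.065 for AURKA, -0.015 to 0.21 for CDKN2C, -0.19 to 0.13 for CDK6 and -0.020 to 0.33 for RB1. Of 608 values of genes named by the rule, 586 kept their direction and their side of the threshold, 12 changed sign and 10 passed it anew, these 10 without both libraries. The cause was not tested. Genes with few counts, such as KIF20A with 9 to 48, limit what could be detected.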

Other observations

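Some partners of the promoter words named above were read in the same libraries, in genes of the G1 control list and the mitosis list, which are named here after their values were seen. The MuvB genes LIN9, LIN37, LIN52 and LIN54 of the G1 control list, and the genes of NF-Y, are not given here. FOXM1, the activator of late mitotic genes, had 4.07, 3.55 and 2.72 CPM with control siRNA and 2.17, 1.23 and 3.91 CPM with circ siRNA, and MYBL2, the gene of B-MYB, had 14.0, 16.2 and 18.3 CPM with control siRNA and 11.3, 13.2 and 21.7 CPM with circ siRNA. In both genes circ libraries 1 and 2 were the 2 lowest of the 6, and circ library 3 lay among or above the controls. Both belong to the mitosis and spindle list, whose order is given above, and are no separate evidence of it. E2F4, of the repressive DREAM complex, had 139, 172 and 165 CPM with control siRNA and 150, 158 and 132 CPM with circ siRNA, with overlapping groups. RBL2, which encodes p130 of the same complex, had 33.6, 13.3 and 19.3 CPM with control siRNA and 26.2, 22.1 and 34.9 CPM with circ siRNA, so control library 1 and circ library 3 were its 2 highest. In the edgeR fit of all 6 libraries their log2 fold changes were -0.51 for FOXM1, -0.07 for MYBL2, -0.11 for E2F4 and 0.33 for RBL2, and none passed the threshold. GMNN, which encodes geminin, the inhibitor of CDT1, had 3.21, 3.35 and 3.56 CPM with control siRNA and 2.59, 2.64 and 2.95 CPM with circ siRNA. Its groups did not overlap, with circ lower, as was so for 5.87% of tested genes, and its log2 fold change was -0.31 (95% interval -0.76 to 0.15).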
